A study of Mus musculus with 8 samples.

Results

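The comparison described here is between 2 sorted populations of spermatogonia that are both labelled as deleted for PRC1: 2 libraries labelled cKit_PRC1dKO against 2 labelled Thy1_PRC1dKO, 4 of the 8 RNA-seq libraries in all. The 4 libraries were chosen by their titles alone, and every gene with enough counts was tested. Both populations came from testes of C57BL/6 mice at postnatal day 7 and carry the genotype label PRC1dKO. The other 4 libraries, 2 of Thy1+ and 2 of cKit+ spermatogonia with the genotype label PRC1ctrl and the same strain, tissue and age, are used to ask whether the populations differed in the same way in controls. The labels do not spell out the alleles, the driver of the deletion, the control genotype or the sorting gates, nor whether the 2 libraries of a group came from separate animals, so p-values measure only the spread between these libraries, which may be technical.

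Spermatogonia are the mitotic germ cells of the testis. Undifferentiated spermatogonia, which include the stem cells, depend on GDNF from somatic cells and are enriched by antibodies to the surface protein THY1. Retinoic acid moves them into differentiation, and the receptor tyrosine kinase KIT then appears on their surface and is used to sort them. Neither protein is specific to germ cells in the testis: THY1 is also carried by stromal cells and T cells, and KIT by Leydig and mast cells. Polycomb repressive complex 1 (PRC1) ubiquitinates histone H2A through its catalytic subunits RING1 and RNF2 and keeps many developmental genes silent.

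Library totals ran from 6763908 to 10976869 counts. The 2 libraries of a group spread wider than counting alone gives (chi-square divided by its degrees of freedom 4.27 in Thy1 dKO and 9.83 in cKit dKO), and their log2 CPM (counts scaled to a common library size) correlated across genes at 0.980 in Thy1 dKO and 0.957 in cKit dKO. The ribosomal precursor Rn45s made up 8.42% to 13.6% of each library. The Thy1 libraries carry the database numbers 2384 to 2387 in the labels and the cKit libraries 3172 to 3174 and 3346, so any handling that goes with those numbers cannot be told apart from the population. Rnf2 CPM was 128 and 126 in Thy1 dKO and 134 and 141 in cKit dKO, against 103 and 120.4 in Thy1 control and 146 and 125 in cKit control. Ring1 CPM was 2.59 and 5.17 in Thy1 dKO and 12.01 and 4.08 in cKit dKO, against 3.16 and 2.70 in Thy1 control and 4.50 and 5.23 in cKit control, and its population difference in dKO did not pass (1.06 ± 0.52, adjusted p = 0.13; 1.71, adjusted p = 0.01 without cKit dKO replicate 2). Both genes overlapped between genotypes or lay higher in the dKO libraries. A deletion of some exons can leave the summed count of a gene high, and the labels do not name the deleted genes, so these values do not check the labels.

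Of 14907 genes tested with edgeR's quasi-likelihood test and Benjamini-Hochberg adjustment at 0.05, 2202 were higher in cKit dKO (14.8%) and 2988 were lower (20.0%). The calls are 5190 genes (34.8%), and 908 of the higher (6.09%) and 1529 of the lower genes (10.3%) changed at least 2-fold. An unadjusted p under 0.05 was reached by 44.0% of the genes. CPM of the 2 populations did not overlap between libraries for 4367 genes that were higher in cKit dKO (29.3%) and 5688 that were lower (38.2%). The median log2 fold change over all genes was -0.08. The larger share of lower calls was not kept when only the 4 dKO libraries were fitted. That fit gave 2463 higher and 2285 lower of 14123 genes, with 51.9% of the calls higher and a median of 0.01. Without Thy1 dKO replicate 1, 1293 genes were higher and 1808 lower, and without Thy1 dKO replicate 2, 1417 and 1951. All log2 fold changes below are cKit over Thy1, with the standard error of the fit and 2 libraries in each group, and every adjusted p-value comes from this edgeR test.

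These values are relative to the rest of each library, and the scaling sets the balance of the calls. With library totals in place of TMM factors, 1666 genes were higher and 3797 lower, so that 30.5% of the calls were higher against 42.4% with TMM. When the libraries were scaled on 33 germ cell genes instead (the core germ cell and piRNA genes with enough counts in every library), 11648 genes were higher and 180 lower, 98.5% of the calls were higher, and the median of all genes moved from -0.08 to 1.59. That scaling gives each gene relative to germ cell transcripts, and its medians are printed as "germ cell scaling" beside most lists. Counts over a list are to be read against the 14.8% higher and 20.0% lower over all genes, and where leaving out 1 library moved one by over 1.5 times, that value is given. In these bulk libraries, fewer cells of a type and less RNA of that type per cell cannot be told apart.

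**Figure D1:**
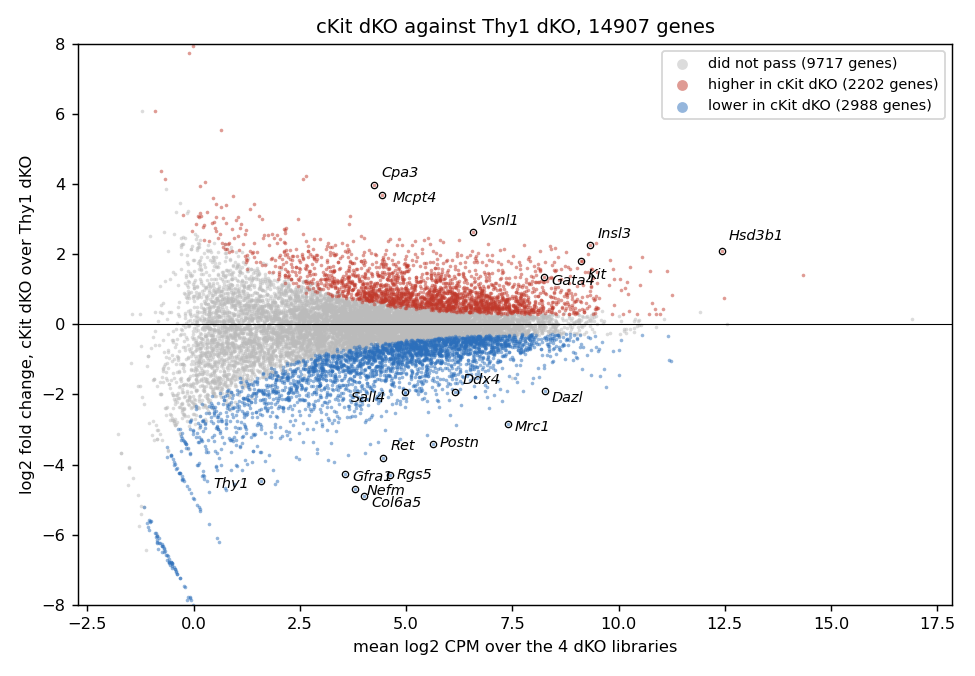
Log2 fold change of cKit dKO over Thy1 dKO (y axis) against mean log2 CPM over the 4 dKO libraries (x axis) for the 14907 genes tested; red genes passed the test as higher, blue as lower, grey did not pass, and 7 genes lie outside the axis. Kit, Leydig cell genes and mast cell genes sit above 0 with TMM scaling. Gfra1, Ret, Thy1, Rgs5, Mrc1 and the germ cell genes Dazl, Ddx4 and Sall4 sit below 0. With germ cell scaling, whose gene set includes Dazl and Ddx4, the last 3 lay between -0.28 and -0.25.

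Both sort markers followed the sort. Kit CPM was 311 and 281 in Thy1 dKO and 1058 and 1012 in cKit dKO. The groups did not overlap, and Kit (mm10 chr5:75574987-75656721), the receptor for stem cell factor, was higher in cKit dKO with a log2 fold change of 1.81 ± 0.11 (adjusted p = 4.4e-08). Thy1 CPM was 12.8 and 15.8 in Thy1 dKO and 1.28 and 0 in cKit dKO, from 230 and 8 counts in all. The cKit dKO libraries were thus close to 0, and Thy1 (chr9:44043384-44048579) was lower at -4.46 ± 0.63 (adjusted p = 7.6e-05). The control populations had log2 fold changes of 1.68 for Kit and -4.86 for Thy1, and the difference between genotypes did not pass for either (adjusted p = 0.70 and 0.87). Kit is counted from near-identical transcript entries in the deposited tables, so its counts may hold the same reads more than once.

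Both chains of the GDNF receptor were close to 0 in cKit dKO. Gfra1, which encodes the GDNF-binding coreceptor, had CPM of 53.6 and 47.2 in Thy1 dKO and 3.20 and 2.04 in cKit dKO. The groups lay far apart, with a log2 fold change of -4.26 ± 0.29 (adjusted p = 1.4e-07), and Gfra1 stayed lower with germ cell scaling. Ret, the signalling receptor that pairs with GFRA1, had CPM of 79.8 and 81.8 in Thy1 dKO and 4.96 and 6.59 in cKit dKO and was lower at -3.80 ± 0.21. The ligand moved the other way: Gdnf CPM was 21.5 and 19.06 in Thy1 dKO and 87.4 and 79.4 in cKit dKO, higher at 2.04 ± 0.18 (adjusted p = 1.1e-06). The control libraries showed the same directions for Gfra1 (-4.32), Ret (-4.08) and Gdnf (1.42).

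Of the 30 tested genes of undifferentiated spermatogonia, 15 were lower in cKit dKO with TMM scaling, against 20.0% of all genes, and 1 was higher (median log2 fold change -1.77). With germ cell scaling the calls turned around, with 10 members higher and 3 lower (median -0.13). Zbtb16, a transcription factor that maintains the stem cell pool, had CPM of 106 and 102 in Thy1 dKO and 24.2 and 27.8 in cKit dKO and was lower at -1.998 ± 0.14. Lin28a, an RNA-binding protein of undifferentiated cells, had CPM of 70.5 and 61.4 in Thy1 dKO and 17.1 and 22.6 in cKit dKO and was lower at -1.73 ± 0.17. Sall4, a zinc finger factor of the same cells, had CPM of 62.2 and 60.3 in Thy1 dKO and 14.2 and 18.2 in cKit dKO and was lower at -1.92 ± 0.16. For these 3 genes no cKit dKO library reached a Thy1 dKO library, but with germ cell scaling their log2 fold changes were -0.35, -0.09 and -0.28 and did not pass, whereas Gfra1 (-2.59) and Ret (-2.17) still did. The 1 member that was higher with TMM scaling, Shisa6, had CPM of 31.8 and 20.4 in Thy1 dKO and 81.6 and 40.6 in cKit dKO, at 1.22 ± 0.29. It did not pass without Thy1 dKO replicate 2 (0.94, adjusted p = 0.062) or without cKit dKO replicate 1 (0.71, adjusted p = 0.053), where 2 other members were higher. Etv5, a GDNF target, had CPM of 101 and 101 in Thy1 dKO and 97.3 and 116 in cKit dKO, with groups that overlapped (0.08 ± 0.13, adjusted p = 0.68).

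Among 19 tested genes of GDNF and FGF signalling, 4 were higher and 7 lower, or 4 lower without Thy1 dKO replicate 1 or cKit dKO replicate 2, with a median of 0.08 (1.73 with germ cell scaling) that fell below 0 with library totals (-0.05) and without cKit dKO replicate 1 (-0.08). Fgfr2, an FGF receptor, had CPM of 47.8 and 57.9 in Thy1 dKO and 167 and 194 in cKit dKO and was higher at 1.78 ± 0.16.

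Surface antigens that have been used to sort spermatogonia were tested as a list, which includes Thy1, Kit and Gfra1 described above. Of 19, 11 were lower and 2 higher (median -1.07; 0.58 with germ cell scaling). Epcam, an adhesion molecule of germ cells, had CPM of 74.4 and 63.8 in Thy1 dKO and 19.2 and 30.9 in cKit dKO and was lower at -1.46 ± 0.21. Itga6, an integrin subunit, was lower at -1.49 ± 0.18. Besides Kit, the member that was higher was Cd24a, with CPM of 278 and 318 in Thy1 dKO and 759 and 1062 in cKit dKO and a log2 fold change of 1.61 ± 0.15.

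The transcripts that define germ cells as such were lower in cKit dKO. Of 26 tested core germ cell genes, 20 were lower (20.0% of all genes) and 0 higher with TMM scaling, also at an unadjusted p under 0.05 (median -1.62; 0.02 with germ cell scaling, which is built on such genes). Their summed CPM was 3119.8 and 2739.7 in Thy1 dKO and 745 and 1064 in cKit dKO, against 3407 and 3806 in Thy1 control and 2898 and 2308 in cKit control. The cKit dKO libraries were thus the lowest of the 8 on this list.

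Dazl, an RNA-binding protein that licenses germ cell development, had CPM of 648 and 545 in Thy1 dKO and 146 and 173 in cKit dKO. Both cKit dKO libraries lay below both Thy1 dKO libraries, at a log2 fold change of -1.90 ± 0.15 (adjusted p = 4.0e-07). Ddx4, which encodes the RNA helicase VASA, had CPM of 141 and 135 in Thy1 dKO and 34.3 and 38.7 in cKit dKO and was lower at -1.92 ± 0.17. On the length-scaled RPKM values deposited by the authors, the mean of Dazl went from 56.6 to 14.3 and that of Ddx4 from 13.9 to 3.497. Stk31, a Tudor domain protein of germ cells, was lower at -2.35 ± 0.18, the ADP/ATP carrier Slc25a31 at -2.14 ± 0.21, and the TFIID-related Taf7l at -2.08 ± 0.17. With germ cell scaling Dazl and Ddx4 stood at -0.25 and -0.26 and did not pass. Both genes are in the set that this scaling is built on, so these values cannot show whether they changed.

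The promoters of this list often held the word CACGTG, an E-box. In the RefSeq table (GRCm38.p6, 32851 promoters, 250 bases before to 50 after the start), 21 of the 26 genes had a promoter, and 12 of the 21 (57.1%) held CACGTG, which reads the same on both strands, against 7.2% of all promoters of the same length. Over the 11699 promoters found for genes tested (78.5% of these genes, so an incomplete set) 1168 held it. The 21 promoters hold a median of 20 CpG, as do those of genes tested, and all promoters a median of 7. A match is a description of the letters only. The following 250 bases upstream of the start were picked among those that hold the word, which is in capitals, to show where it lies in 3 of the genes above: Ddx4 on the minus strand at chr13:112652311-112652560 with the word 29 bases before the start, Stk31 on the plus strand at chr6:49395354-49395603 with 120 bases, and Slc25a31 on the plus strand at chr3:40708621-40708870 with 93 bases.
Ddx4: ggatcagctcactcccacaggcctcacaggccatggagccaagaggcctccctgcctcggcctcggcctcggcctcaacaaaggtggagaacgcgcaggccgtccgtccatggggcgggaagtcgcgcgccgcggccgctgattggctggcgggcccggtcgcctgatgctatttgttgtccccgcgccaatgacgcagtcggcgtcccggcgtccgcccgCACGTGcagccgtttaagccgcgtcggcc
Stk31: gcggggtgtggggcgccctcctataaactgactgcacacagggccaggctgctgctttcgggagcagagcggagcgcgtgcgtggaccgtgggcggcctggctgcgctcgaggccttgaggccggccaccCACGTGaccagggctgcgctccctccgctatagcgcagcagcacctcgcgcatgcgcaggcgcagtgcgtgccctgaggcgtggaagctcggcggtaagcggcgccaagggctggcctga
Slc25a31: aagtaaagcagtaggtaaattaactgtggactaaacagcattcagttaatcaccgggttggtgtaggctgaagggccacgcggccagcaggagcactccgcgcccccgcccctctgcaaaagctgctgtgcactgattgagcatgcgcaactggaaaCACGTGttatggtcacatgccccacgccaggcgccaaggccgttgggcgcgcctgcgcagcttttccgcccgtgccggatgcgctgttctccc

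The piRNA pathway, which makes small RNAs that silence transposons in germ cells, showed the same direction. Of 23 tested members, 18 were lower and 0 higher with TMM scaling (median -1.53). The median was 0.07 with germ cell scaling, which is built on such genes. The list shares members with the core germ cell list. Morc1, needed for transposon silencing, had CPM of 42.8 and 41.7 in Thy1 dKO and 5.12 and 7.06 in cKit dKO and was lower at -2.79 ± 0.20. Tdrkh, which tethers piRNA processing to mitochondria, had CPM of 42.7 and 37.8 in Thy1 dKO and 9.45 and 8.94 in cKit dKO and was lower at -2.13 ± 0.21. For both genes the 2 groups lay apart without overlap. Piwil2, a PIWI protein that binds piRNAs, had CPM of 191 and 159.8 in Thy1 dKO and 47.9 and 74.3 in cKit dKO and was lower at -1.52 ± 0.17, and Mael, a further piRNA factor, was lower at -1.91 ± 0.15.

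Genes of meiotic prophase are transcribed at low levels before meiosis, and these too were lower. Of 30 tested, 25 were lower and 0 higher with TMM scaling (median -1.44; 0.17 with germ cell scaling). Smc1b, a meiotic cohesin subunit, had CPM of 339 and 308 in Thy1 dKO and 71.1 and 102 in cKit dKO and was lower at -1.90 ± 0.16. Tex15, a factor of meiotic recombination and transposon silencing, had CPM of 278 and 266 in Thy1 dKO and 58.9 and 75.6 in cKit dKO and was lower at -2.01 ± 0.17. For both genes each cKit dKO library was below each Thy1 dKO library. Sycp1, of the synaptonemal complex, was lower at -1.38 ± 0.17, Stag3, a cohesin subunit, at -1.66 ± 0.16, and Mei1, needed for meiotic double-strand breaks, at -2.37 ± 0.35. None of the 6 tested genes of late spermatogenesis passed in either direction, and 1 was higher at an unadjusted p under 0.05 in the edgeR test (1 passed as higher without Thy1 dKO replicate 2 or cKit control replicate 2, and 2 without cKit dKO replicate 1).

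Genes of differentiating spermatogonia did not rise with Kit on the TMM scale. Of 16 tested, 10 were lower and 1, Kit itself, was higher (median -0.95 with TMM; 0.68 with germ cell scaling, a reversal). Sohlh1 and Sohlh2, transcription factors that drive early differentiation, were lower at -1.74 ± 0.29 and -1.67 ± 0.19. Dnmt3b, a de novo DNA methyltransferase, had CPM of 77.3 and 74.1 in Thy1 dKO and 35.1 and 45.3 in cKit dKO and was lower at -0.91 ± 0.16. In controls the direction of Dnmt3b was the opposite on the TMM scale (0.54 ± 0.15, adjusted p = 0.017). Its CPM was 85.7 and 92.4 in Thy1 control and 146 and 114 in cKit control. With germ cell scaling, Dnmt3b was higher in cKit dKO at 0.73 (adjusted p = 0.0068). The genotypes then differed by -0.21, which did not pass.

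Stra8, the retinoic acid target that marks entry into differentiation and meiosis, showed the same contrast between genotypes on the TMM scale. Its CPM was 28.04 and 24.2 in Thy1 dKO and 18.7 and 19.9 in cKit dKO, a log2 fold change of -0.44 ± 0.20 that did not pass (adjusted p = 0.11; -0.57, adjusted p = 0.047 with library totals). The 2 dKO groups did not overlap, but they lay close together. In controls its CPM was 30.8 and 30.6 in Thy1 control and 70.3 and 48.9 in cKit control, higher in cKit at 0.96 ± 0.19 (adjusted p = 0.0018). The 2 differences themselves differed by -1.40 ± 0.28 (adjusted p = 0.0088), but not past the threshold without Thy1 dKO replicate 1 (-1.28, adjusted p = 0.067) or without cKit control replicate 1 (-1.11, adjusted p = 0.058). With germ cell scaling, Stra8 was higher in cKit dKO at 1.22 (adjusted p = 0.00020) and the genotypes differed by -0.12, which did not pass.

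**Figure D2:**
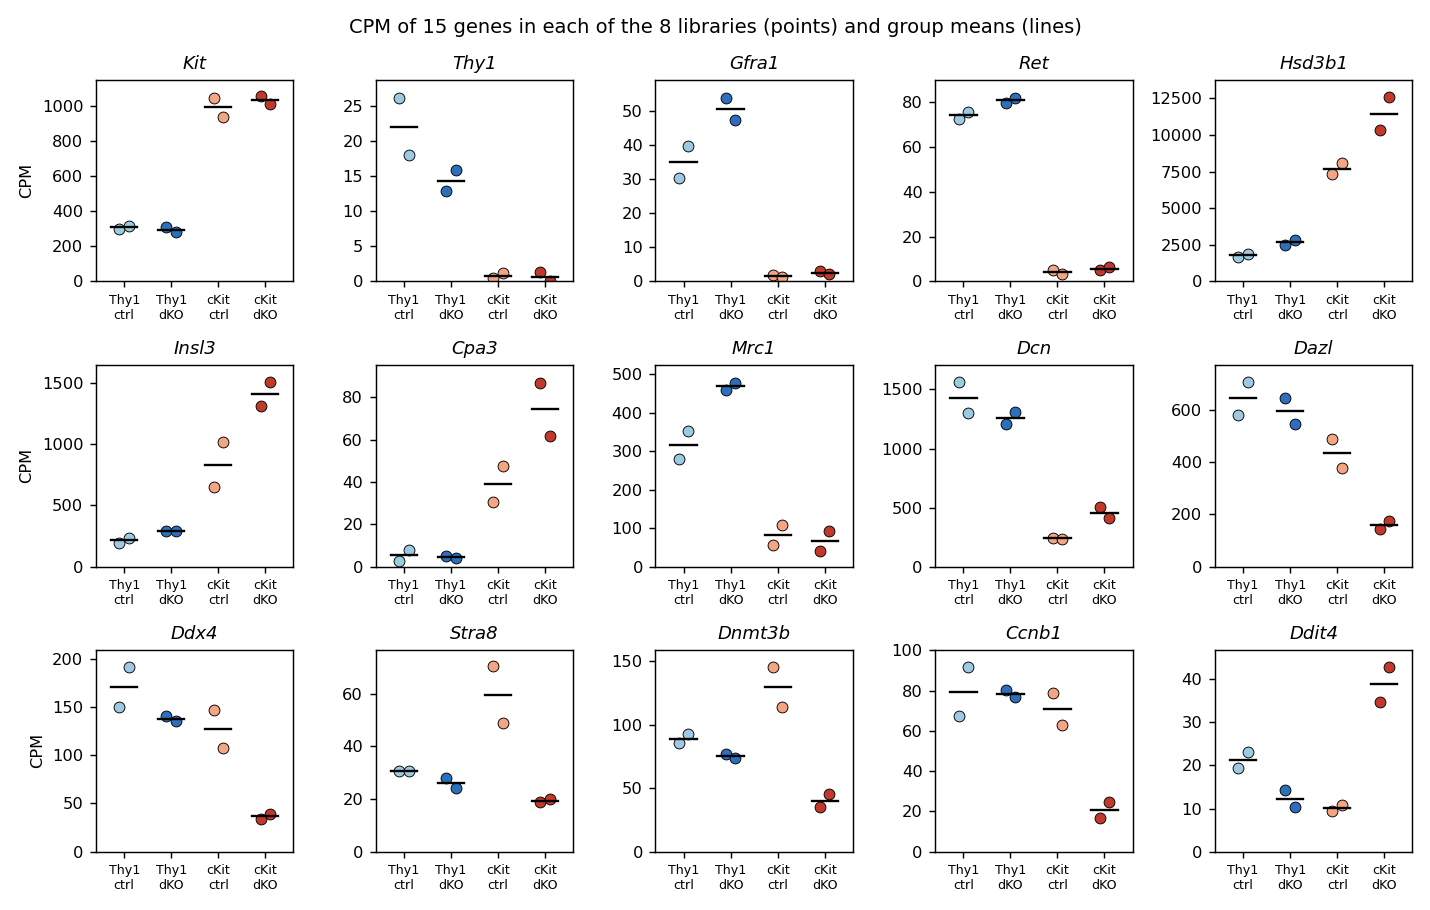
CPM (y axes, each from 0) of 15 genes in the 8 libraries, with points for the 2 libraries of a group and a line for their mean. Kit is between 938 and 1058 CPM in the 4 cKit libraries and between 281 and 317 CPM in the 4 Thy1 libraries, Dazl and Ddx4 are lowest in the 2 cKit dKO libraries on this TMM scale, and Hsd3b1 and Insl3 are high in all 4 cKit libraries.

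Cell cycle genes were lower in cKit dKO on the TMM scale. Of 28 tested genes of G2 and M phase, 25 were lower and 0 higher (median -0.86; 0.78 with germ cell scaling, a reversal). Ccnb1, the cyclin that drives entry into mitosis, had CPM of 80.2 and 76.9 in Thy1 dKO and 16.8 and 24.9 in cKit dKO and was lower at -1.91 ± 0.20 (adjusted p = 6.4e-06). Cenpf, a kinetochore protein, had CPM of 293 and 283 in Thy1 dKO and 114 and 142 in cKit dKO and was lower at -1.17 ± 0.14. The 2 groups did not overlap for either gene. Bub1, a spindle checkpoint kinase, was lower at -1.69 ± 0.15, the mitotic motor Kif11 at -1.31 ± 0.15, the topoisomerase Top2a at -0.77 ± 0.13 and the proliferation antigen Mki67 at -0.57 ± 0.10. In controls 3 of these 6 genes, Cenpf, Mki67 and Top2a, had log2 fold changes of 0.33, 0.20 and 0.18 that did not pass, Kif11 was lower at -0.45, and over the list the control median was -0.04.

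Of 31 tested genes of S phase, 22 were lower and 0 higher (median -0.76; 0.90 with germ cell scaling, a reversal; control median -0.17). Mcm6, a subunit of the replicative helicase, had CPM of 141 and 140.2 in Thy1 dKO and 57.0 and 59.6 in cKit dKO and was lower at -1.27 ± 0.14. Pole, the catalytic subunit of DNA polymerase epsilon, had CPM of 240.3 and 231 in Thy1 dKO and 89.2 and 112 in cKit dKO and was lower at -1.23 ± 0.14. For both genes the groups did not overlap. Prim1, the catalytic primase subunit, was lower at -1.05 ± 0.16 and Rrm1, of ribonucleotide reductase, at -0.802 ± 0.13.

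The promoters of these lists were searched for 2 words known from cell cycle genes. TCCCGC or its reverse complement, an E2F-type word, was in 17 of 25 S phase promoters found (68.0%) against 20.0% of all promoters and 35.4% of those found for genes tested. TTTGAA or its reverse complement, a word of the cell cycle homology region type, was in 18 of 23 G2 and M phase promoters (78.3%) against 17.9% of all promoters and 11.8% of those found for genes tested. The S phase promoters hold a median of 22 CpG and the G2 and M phase promoters a median of 25, against 20 for genes tested. None of the 3 words searched contains another. The 250 bases upstream of 2 S phase genes and of 2 mitotic genes, picked among those that hold the word in capitals, show its place: Prim1 (plus strand, chr10:128014965-128015214, 14 bases before the start), Rrm1 (plus strand, chr7:102441445-102441694, 66 bases), Kif11 (plus strand, chr19:37376132-37376381, 19 bases) and Top2a (minus strand, chr11:99024190-99024439, with 2 matches, the nearer 23 bases before the start).
Prim1: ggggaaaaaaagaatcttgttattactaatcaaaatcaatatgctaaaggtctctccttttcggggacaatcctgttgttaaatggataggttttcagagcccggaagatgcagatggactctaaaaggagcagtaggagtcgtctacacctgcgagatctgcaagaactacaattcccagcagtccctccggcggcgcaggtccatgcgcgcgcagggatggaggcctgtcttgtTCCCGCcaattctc
Rrm1: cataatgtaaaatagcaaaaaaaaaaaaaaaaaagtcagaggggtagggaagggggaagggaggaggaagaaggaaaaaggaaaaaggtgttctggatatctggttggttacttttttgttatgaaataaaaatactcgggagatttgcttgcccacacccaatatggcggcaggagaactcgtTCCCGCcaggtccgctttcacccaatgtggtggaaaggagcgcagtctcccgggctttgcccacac
Kif11: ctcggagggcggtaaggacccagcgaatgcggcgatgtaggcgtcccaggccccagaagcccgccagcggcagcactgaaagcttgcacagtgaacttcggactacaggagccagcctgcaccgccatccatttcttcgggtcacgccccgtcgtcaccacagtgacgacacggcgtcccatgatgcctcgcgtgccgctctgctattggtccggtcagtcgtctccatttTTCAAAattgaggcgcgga
Top2a: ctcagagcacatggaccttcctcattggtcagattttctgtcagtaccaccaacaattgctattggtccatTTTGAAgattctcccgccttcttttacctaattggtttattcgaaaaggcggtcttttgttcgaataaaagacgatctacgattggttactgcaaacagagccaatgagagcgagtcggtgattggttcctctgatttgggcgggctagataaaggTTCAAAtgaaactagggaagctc

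**Figure D3:**
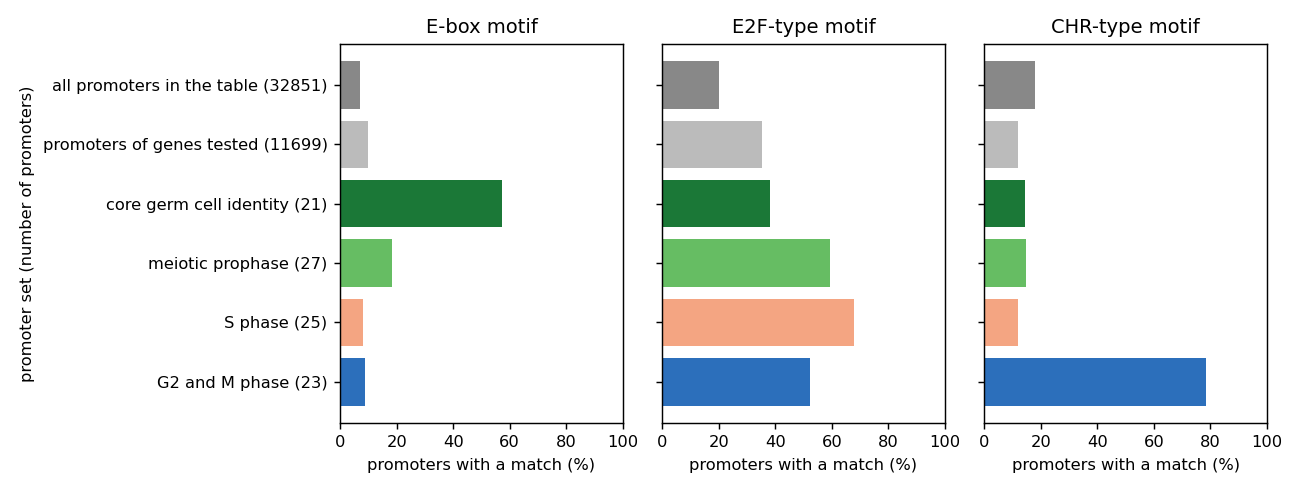
Share of promoters (x axes, percent) with at least 1 match to the E-box word CACGTG, the E2F-type word TCCCGC or the cell cycle homology region word TTTGAA on either strand, in 6 promoter sets (y axis). The E-box word is at 57.1% in core germ cell promoters, the E2F-type word at 68.0% in S phase promoters and the third word at 78.3% in G2 and M phase promoters; the set of genes tested holds promoters for 78.5% of these genes.

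Of 24 tested CDK inhibitors and p53 response genes, which brake the cell cycle, 5 were higher and 6 lower, near the 14.8% and 20.0% of all genes (median -0.08; 1.59 with germ cell scaling and 0.01 without cKit control replicate 2, both reversals). Without Thy1 dKO replicate 1 the counts were 2 and 3, and without Thy1 dKO replicate 2 the higher count was 3. Cdkn2a, the INK4A/ARF locus and a classic Polycomb target, had 21 counts over both libraries of Thy1 dKO and 0 over those of cKit dKO, which is at least 5.45-fold lower if 3 counts are assumed for the cKit group (adjusted p = 0.0085, and 0.057 without Thy1 dKO replicate 1). Cdkn1c, the gene of p57, had CPM of 81.1 and 78.5 in Thy1 dKO and 49.6 and 40.5 in cKit dKO and was lower at -0.83 ± 0.15. Gadd45g, a stress-responsive growth arrest gene, had CPM of 4.50 and 5.31 in Thy1 dKO and 19.5 and 20.1 in cKit dKO and was higher at 2.01 ± 0.29. Pmaip1, the apoptosis activator NOXA, was lower at -2.26 ± 0.30. Of 23 tested apoptosis regulators, 4 were higher and 7 lower, or 4 lower without Thy1 dKO replicate 2 (median -0.30; 1.27 with germ cell scaling, a reversal). Bak1, a mitochondrial pore former, was among the higher ones at 1.59 ± 0.22.

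Leydig cell markers, many of them genes of testosterone synthesis, were higher in cKit dKO. Of 15 tested, 14 were higher (14.8% of all genes) and 0 lower, also at an unadjusted p under 0.05 (median 1.88; 3.57 with germ cell scaling). Hsd3b1, which makes progesterone and androgen precursors, had CPM of 2493 and 2828 in Thy1 dKO and 10327 and 12560.0 in cKit dKO. The groups did not overlap, at a log2 fold change of 2.10 ± 0.11 (adjusted p = 2.6e-08). It resembles its paralog Hsd3b6, so reads may be split between them. Insl3, a Leydig cell peptide hormone, had CPM of 294 and 294 in Thy1 dKO and 1314 and 1503 in cKit dKO and was higher at 2.26 ± 0.17. The luteinizing hormone receptor Lhcgr was higher at 2.07 ± 0.13 and the steroidogenic factor Nr5a1 at 1.81 ± 0.11.

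Summed over the list, Leydig markers made 4207 and 4677 CPM in Thy1 dKO and 17031 and 19817 CPM in cKit dKO. The control sums were 2909 and 3650.2 CPM in Thy1 and 12280.0 and 14866 CPM in cKit, with a median log2 fold change of 1.85. Libraries labelled as spermatogonia thus held these markers in both populations and both genotypes, and in RPKM the mean of Hsd3b1 in cKit dKO (1642) was above that of Dazl (14.3). The part of Leydig cell RNA in the changes of other genes was not tested.

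Mast cell markers were higher too. Of 13 tested, 10 were higher and 0 lower (median 3.29; 4.95 with germ cell scaling). Cpa3, a mast cell carboxypeptidase, had CPM of 5.07 and 4.22 in Thy1 dKO and 86.6 and 62.0 in cKit dKO, an increase of 3.99 ± 0.35 with no overlap (adjusted p = 1.2e-06). Mcpt4, a mast cell protease, had CPM of 5.63 and 6.13 in Thy1 dKO and 82.9 and 70.3 in cKit dKO and was higher at 3.70 ± 0.36. Without Kit, which is on the list, the markers summed to 60.8 and 62.2 CPM in Thy1 dKO and 357 and 294 CPM in cKit dKO, against 63.5 and 69.5 CPM and 158 and 250.5 CPM in the control populations. Fcer1a, the IgE receptor alpha chain, had 0 counts in all 4 dKO libraries, which allows up to 3 counts in each. The part of mast cells in the Kit counts was not tested.

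The Cpa3 promoter is shown because Cpa3 rose most among genes with a mean log2 CPM of at least 3 over the dKO libraries. It is poor in CpG, in capitals below: the 300 bases hold 3 CpG, against a median of 7 over all promoters in the table, of 20 over those found for genes tested and of 3 over the 11 mast cell marker promoters found. The 250 bases are on the minus strand at chr3:20242182-20242431.
Cpa3: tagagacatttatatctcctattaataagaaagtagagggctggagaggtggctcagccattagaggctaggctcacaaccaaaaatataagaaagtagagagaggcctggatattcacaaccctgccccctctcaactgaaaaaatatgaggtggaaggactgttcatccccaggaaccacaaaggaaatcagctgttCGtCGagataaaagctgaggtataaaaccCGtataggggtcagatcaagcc

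Of 28 tested Sertoli cell markers, 11 were higher and 3 lower (median 0.71; 2.38 with germ cell scaling), but several of the higher ones are shared with other cells. Gata4, a transcription factor of Sertoli and Leydig cells, had CPM of 193 and 186 in Thy1 dKO and 477 and 484 in cKit dKO and was higher at 1.34 ± 0.10. Espn, which bundles actin at Sertoli cell junctions, had CPM of 4.28 and 5.04 in Thy1 dKO and 25.5 and 42.2 in cKit dKO and was higher at 2.86 ± 0.30. Wt1 and Sox9, which define Sertoli cells, did not pass with TMM scaling. Wt1 CPM was 19.4 and 16.3 in Thy1 dKO and 16.8 and 14.7 in cKit dKO (-0.18 ± 0.25). Sox9 CPM was 20.0 and 27.9 in Thy1 dKO and 36.7 and 26.7 in cKit dKO (0.40 ± 0.24). With germ cell scaling both passed as higher, Wt1 at 1.498 and Sox9 at 2.09.

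Markers of macrophages and stromal cells were lower in cKit dKO on the TMM scale. Of 18 tested macrophage markers, 13 were lower and 0 higher (median -2.14; -0.58 with germ cell scaling). Mrc1, a mannose receptor of resident macrophages, had CPM of 459 and 477 in Thy1 dKO and 39.4 and 91.4 in cKit dKO and was lower at -2.84 ± 0.31 (adjusted p = 7.2e-06). Csf1r, the macrophage growth factor receptor, had CPM of 222 and 212 in Thy1 dKO and 27.1 and 75.4 in cKit dKO and was lower at -2.08 ± 0.33. The 2 cKit dKO libraries stood apart from each other here, with summed CPM of 234 and 711 against 1631 and 1806 in Thy1 dKO.

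Of 25 tested peritubular and stromal markers, 17 were lower and 2 higher (1 higher without either Thy1 dKO library and 4 without cKit dKO replicate 2; median -1.40; 0.24 with germ cell scaling, a reversal). Rgs5, a pericyte gene, had CPM of 109 and 105 in Thy1 dKO and 5.44 and 5.33 in cKit dKO and was lower at -4.31 ± 0.19, and with germ cell scaling it remained lower at -2.65. Pdgfrb, a pericyte growth factor receptor, had CPM of 76.1 and 104 in Thy1 dKO and 10.9 and 7.84 in cKit dKO and was lower at -3.26 ± 0.22. For neither gene did the groups overlap. The sort marker Thy1 is also on this list and among the 17 lower members. Dcn, a collagen-binding proteoglycan, had CPM of 1207 and 1307 in Thy1 dKO and 502 and 411 in cKit dKO and was lower at -1.46 ± 0.12; with germ cell scaling it stood at 0.23. The 2 members that were higher, Ptch1 and Gli1, are a receptor and a target of hedgehog signalling, at 0.49 ± 0.14 and 0.69 ± 0.15, and Ptch1 did not pass without Thy1 dKO replicate 1 (0.48, adjusted p = 0.076) or 2 (0.50, adjusted p = 0.064). The list summed to 13991 and 14614 CPM in Thy1 dKO and 8494 and 6936 CPM in cKit dKO, against 16290.0 and 12283 CPM and 4390.4 and 4216 CPM in the control populations. The part of stromal cells in the changes of other genes was not tested.

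Of 16 endothelial markers, 3 were lower, near the 20.0% of all genes, and 0 higher (median -0.28; 1.32 with germ cell scaling, a reversal). The 3 were Flt4, a lymphatic receptor, Tek, an angiopoietin receptor, and Eng, a coreceptor for TGF-beta ligands. The pan-endothelial gene Cdh5 had CPM of 377 and 384 in Thy1 dKO and 349 and 342 in cKit dKO and did not pass (-0.14 ± 0.10). Of 7 T cell markers, 4 were lower, Thy1 included, against 20.0% of all genes (median -1.17; 0.41 with germ cell scaling, a reversal). Cd3e, a subunit of the T cell receptor complex, had CPM of 13.1 and 8.71 in Thy1 dKO and 0.961 and 0.471 in cKit dKO (-3.91 ± 0.56).

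**Figure D4:**
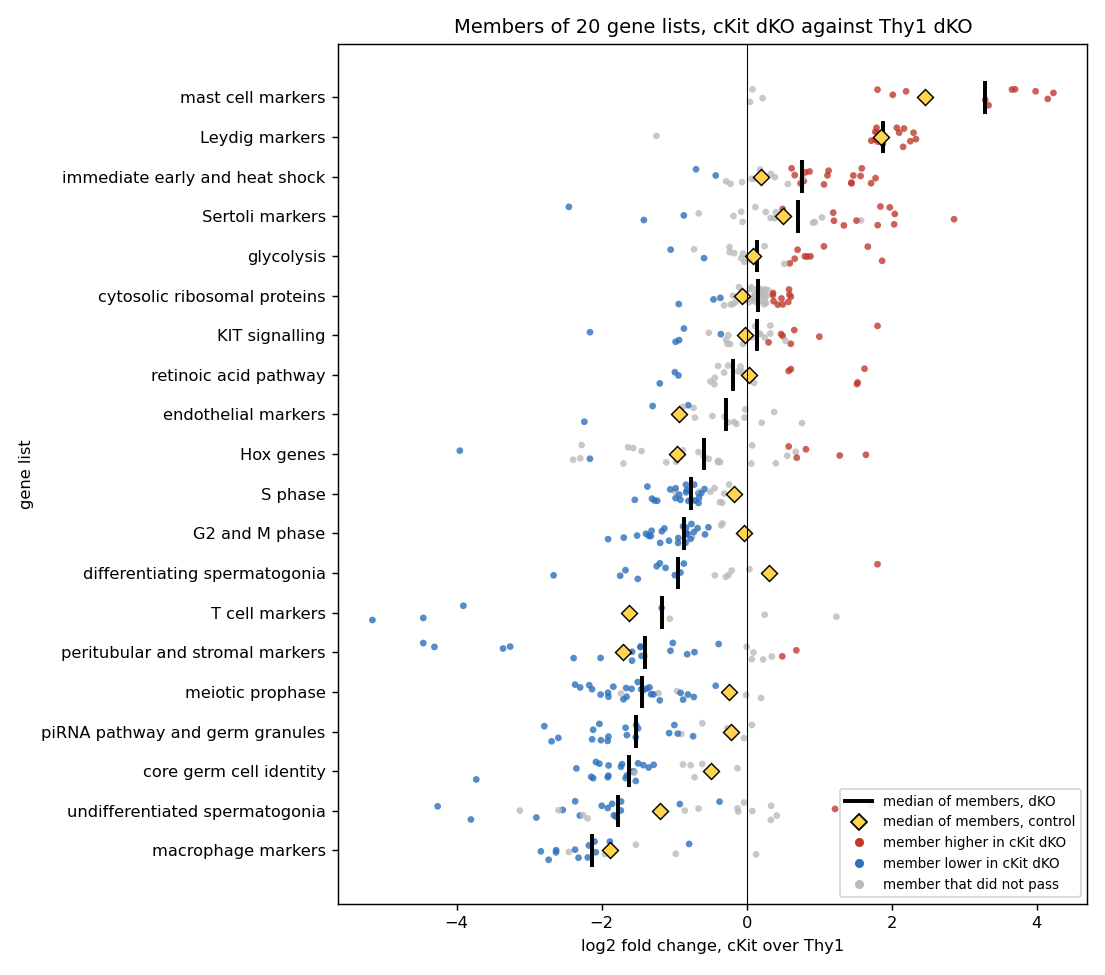
Log2 fold change of cKit over Thy1 (x axis) for the members of 20 gene lists (y axis), with points for dKO coloured by call, a black bar for the dKO median and a yellow diamond for the control median, on the TMM scale. The mast cell and Leydig medians lie at 3.29 and 1.88, and the macrophage and undifferentiated medians at -2.14 and -1.77. The core germ cell, piRNA, meiotic, S phase and G2 and M phase medians lie below 0 in dKO and nearer 0 in control. With germ cell scaling, which is built on core germ cell and piRNA genes, these 5 medians lay between 0.02 and 0.90.

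Genes of PRC1 itself moved in both directions. Of 29 tested subunits, 4 were higher and 6 lower, close to the 14.8% and 20.0% of all genes, and 7 were higher without cKit control replicate 2 or with RLE size factors (median 0.01; -0.13 with library totals, -0.03 without Thy1 dKO replicate 1 and 1.66 with germ cell scaling). Scml2, a germline subunit that keeps PRC1 off the sex chromosomes in meiosis, had CPM of 141 and 127 in Thy1 dKO and 38.4 and 49.7 in cKit dKO and was lower at -1.61 ± 0.16. Cbx2, a chromodomain subunit, had CPM of 49.3 and 47.2 in Thy1 dKO and 15.2 and 24.9 in cKit dKO and was lower at -1.26 ± 0.19. Pcgf5, of a variant PRC1, was lower at -1.41 ± 0.19. Pcgf2 (MEL18), of canonical PRC1, had CPM of 52.8 and 65.2 in Thy1 dKO and 90.0 and 108 in cKit dKO and was higher at 0.75 ± 0.15, and Bcor, a variant PRC1 corepressor, was higher at 0.55 ± 0.12.

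Of 12 tested PRC2 subunits, which methylate histone H3, 7 were lower, against 20.0% of all genes, and 1 higher (median -0.50; 1.16 with germ cell scaling, a reversal). The lower count was 2 without Thy1 dKO replicate 1 and 4 without Thy1 dKO replicate 2 or cKit dKO replicate 2. Mtf2, an accessory subunit that recruits PRC2 to CpG islands, had CPM of 98.8 and 87.3 in Thy1 dKO and 42.3 and 36.9 in cKit dKO and was lower at -1.23 ± 0.14. Ezh2, the methyltransferase of dividing cells, had CPM of 52.7 and 54.9 in Thy1 dKO and 28.7 and 29.8 in cKit dKO and was lower at -0.88 ± 0.15. Phf1, another accessory subunit, was higher at 1.21 ± 0.28. Of 16 tested DNA methylation enzymes, 5 were higher and 6 lower, against 14.8% and 20.0% of all genes (median -0.14; 1.53 with germ cell scaling, a reversal), but 2 were higher without either Thy1 dKO library or with library totals. Hells, a remodeller needed for DNA methylation, had CPM of 226 and 220.0 in Thy1 dKO and 61.2 and 69.0 in cKit dKO and was lower at -1.78 ± 0.15, Dnmt1, the maintenance methyltransferase, was lower at -0.70 ± 0.11, and Tet2, which oxidizes methylcytosine, was higher at 0.74 ± 0.13.

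Hox genes are the best known targets of Polycomb silencing. Of 39 listed, 29 had enough counts to be tested, and of these, 5 were higher and 2 lower, against 14.8% and 20.0% of all genes (median -0.59; 1.08 with germ cell scaling, a reversal). The higher count was 2 without Thy1 dKO replicate 1, 1 without Thy1 dKO replicate 2 and 3 without cKit dKO replicate 1, and the lower count was 1 without either Thy1 dKO library. With limma on log2(RPKM + 1), 8 Hox genes had values high enough to be tested. Their median was 0.35 (0.49 with log2(RPKM + 0.1)), which is over fewer genes than the 29 and cannot be set against their median. Summed over the 39 listed genes, Hox CPM was 214 and 210 in Thy1 dKO and 282 and 255.5 in cKit dKO. In controls the sums were 214 and 164 in Thy1 and 151 and 159 in cKit. The negative median is thus not a lower sum of Hox counts. Hoxd9 had CPM of 41.1 and 43.6 in Thy1 dKO and 69.3 and 67.4 in cKit dKO and was higher at 0.69 ± 0.17, without overlap of the groups, but did not pass without Thy1 dKO replicate 1 (0.65, adjusted p = 0.065). Hoxc6 had CPM of 16.8 and 13.5 in Thy1 dKO and 45.5 and 28.5 in cKit dKO and was higher at 1.28 ± 0.31, but did not pass without Thy1 dKO replicate 2 (1.14, adjusted p = 0.0503). Hoxb7 had CPM of 6.53 and 5.58 in Thy1 dKO and 0.8005 and 1.88 in cKit dKO and was lower at -2.16 ± 0.53. Of 79 other somatic developmental transcription factors 43 were tested, of which 3 were higher and 13 lower, or 7 and 8 lower without Thy1 dKO replicate 1 and 2 (median -0.54; 1.12 with germ cell scaling, a reversal). Foxf1, a mesenchymal factor, had CPM of 18.8 and 15.2 in Thy1 dKO and 1.92 and 2.35 in cKit dKO and was lower at -2.99 ± 0.38, and Six4, a homeobox factor, was lower at -2.34 ± 0.35. Tbx3, a T-box repressor, had CPM of 49.6 and 52.1 in Thy1 dKO and 183 and 192 in cKit dKO and was higher at 1.88 ± 0.15.

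Genes of KIT signalling gave 7 higher and 5 lower of 26 tested, or 4 and 3 without either Thy1 dKO library (median 0.15; 1.82 with germ cell scaling). The sort marker Kit is itself among the higher members. Gab2, a docking protein below KIT, had CPM of 265 and 249.9 in Thy1 dKO and 571 and 462 in cKit dKO and was higher at 1.004 ± 0.12. Kitl, the KIT ligand, had CPM of 74.1 and 78.4 in Thy1 dKO and 109 and 107 in cKit dKO and was higher at 0.50 ± 0.12 (0.46, adjusted p = 0.074 without Thy1 dKO replicate 1).

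Retinoic acid genes gave 5 higher and 3 lower of 18 tested, against 14.8% and 20.0% of all genes (median -0.18; 1.45 with germ cell scaling, a reversal). The lower count was 0 without Thy1 dKO replicate 1 and 1 without cKit dKO replicate 1. The enzymes on both sides of the metabolite were higher: Aldh1a1, which makes retinoic acid, had CPM of 1270.3 and 1368 in Thy1 dKO and 3719.9 and 3908 in cKit dKO (1.53 ± 0.11), and Cyp26b1, which degrades it, had CPM of 1070.1 and 957 in Thy1 dKO and 3119.6 and 2714 in cKit dKO (1.52 ± 0.11). Neither gene overlapped between the groups. Dhrs3, which turns retinal back to retinol, was higher at 1.63 ± 0.15, and the receptor Rara at 0.61 ± 0.14. In controls Aldh1a1 and Cyp26b1 were higher in cKit by 1.63 and 1.26.

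Among 31 tested WNT, BMP and hedgehog ligands and antagonists, 9 were higher and 6 lower, against 14.8% and 20.0% of all genes (median 0.05; -0.09 with library totals, a reversal, and 1.68 with germ cell scaling). The lower count was 1 without either Thy1 dKO library and 3 without cKit dKO replicate 2, where the median was -0.10. Bmp2 had CPM of 44.4 and 67.2 in Thy1 dKO and 220.4 and 327 in cKit dKO and was higher at 2.30 ± 0.29. Wnt6 had CPM of 18.6 and 20.7 in Thy1 dKO and 85.7 and 132 in cKit dKO and was higher at 2.47 ± 0.25. Sfrp1, a secreted WNT antagonist, had CPM of 657 and 564 in Thy1 dKO and 1574 and 1396 in cKit dKO and was higher at 1.28 ± 0.13. Of 38 collagen and matrix genes, 7 were higher and 17 lower (median -0.19; 1.49 with germ cell scaling, a reversal). Postn, the matrix protein periostin, had CPM of 165 and 161 in Thy1 dKO and 20.2 and 10.7 in cKit dKO and was lower at -3.40 ± 0.24, whereas the laminin chain Lama1 had CPM of 112 and 104 in Thy1 dKO and 204 and 191 in cKit dKO and was higher at 0.87 ± 0.14.

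Immediate early and heat shock genes, which also respond to cell dissociation, were more often higher: 16 of 28 tested were higher and 2 lower (median 0.76; 2.397 with germ cell scaling). Without Thy1 dKO replicate 1 the higher count was 10, and over all 8 left-out libraries it ran from 10 to 19, and the lower count was 1 without Thy1 dKO replicate 1, cKit control replicate 2 or cKit dKO replicate 1. Myc had CPM of 74.6 and 91.5 in Thy1 dKO and 237 and 309 in cKit dKO and was higher at 1.72 ± 0.16. Dusp1, a phosphatase induced by stress, had CPM of 363 and 418 in Thy1 dKO and 999 and 1323 in cKit dKO and was higher at 1.57 ± 0.14. Both cKit dKO libraries exceeded both Thy1 dKO libraries for each, and cKit dKO replicate 2 was the highest. Hsp90aa1, an inducible chaperone, was lower at -0.70 ± 0.12. The part of sample handling in these values was not tested.

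Of 22 glycolysis genes, 9 were higher and 2 lower, or 1 lower when any 1 library other than cKit control replicate 1 was left out (median 0.15; 1.78 with germ cell scaling), with Hk2, a hexokinase, at 1.07 ± 0.12 and the glucose transporter Slc2a3 lower at -1.05 ± 0.18. Of 53 cytosolic ribosomal protein genes, 10 were higher and 3 lower, against 14.8% and 20.0% of all genes (median 0.15; 1.82 with germ cell scaling). The higher count was 3 and 4 without Thy1 dKO replicate 1 and 2 and 17 without cKit control replicate 2, and the lower count was 1 without Thy1 dKO replicate 1. Of 20 interferon response genes, 3 were higher, near the 14.8% of all genes, and 0 lower (median 0.12; 1.72 with germ cell scaling). Without Thy1 dKO replicate 2, 1 was higher, and without either cKit dKO library 1 was lower; the median lay below 0 without Thy1 dKO replicate 1 (-0.12) or cKit dKO replicate 2 (-0.28). Bst2, an antiviral membrane protein, was higher at 1.33 ± 0.22.

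By the rule for the largest changes (adjusted p under 0.05, mean log2 CPM of at least 3 over the 4 dKO libraries and no overlap), 1990 higher and 2259 lower genes were eligible. The 12 with the largest increase, of which Cpa3, Mcpt4, Espn and Wnt6 are described above, included Vsnl1, a neuronal calcium sensor, with CPM of 43.8 and 32.3 in Thy1 dKO and 259 and 217 in cKit dKO (2.64 ± 0.16). Aldh3a1, an aldehyde dehydrogenase, had CPM of 23.4 and 25.05 in Thy1 dKO and 131 and 125 in cKit dKO, with no overlap. Slc25a35, a mitochondrial carrier, had CPM of 33.1 and 32.1 in Thy1 dKO and 189 and 160.0 in cKit dKO (2.42 ± 0.14). Nppc, the gene of C-type natriuretic peptide, had CPM of 4.17 and 9.12 in Thy1 dKO and 27.5 and 47.5 in cKit dKO and varied more between libraries (2.52 ± 0.41). The remaining 4 of the 12 were Cdhr5, Rab13, Slc25a34 and Gm10471.

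The 12 with the largest decrease held Gfra1, Ret, Rgs5 and Postn, described above. Col6a5, a collagen VI chain, had CPM of 83.6 and 101 in Thy1 dKO and 4.96 and 1.25 in cKit dKO (-4.89 ± 0.36). Nefm, a neurofilament subunit, had CPM of 69.6 and 67.0 in Thy1 dKO and 2.56 and 2.67 in cKit dKO (-4.70 ± 0.25), and the Thy1 control libraries had 13.4 and 14.7. Cbr2, a carbonyl reductase, had CPM of 39.9 and 33.4 in Thy1 dKO and 2.24 and 2.51 in cKit dKO (-3.94 ± 0.27). Prkg1, Sulf1, Fmod and Fndc1 were also among the 12.

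The 2 populations were then compared in the same way in controls, where 2939 genes were called (19.7%), of which 1410 were higher in cKit (9.46%) and 1529 lower (10.3%). The dKO and control comparisons share no libraries. Of the genes called higher in dKO, 1068 were also called higher in controls (48.5% of the dKO calls and 75.7% of the control calls), and 951 were lower in both (31.8% and 62.2%). Opposite calls were rare, with 23 genes lower in dKO and higher in controls and 12 the other way. Log2 fold changes of the 2 comparisons correlated across genes at Pearson r = 0.59, a description over genes that are not independent.

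**Figure D5:**
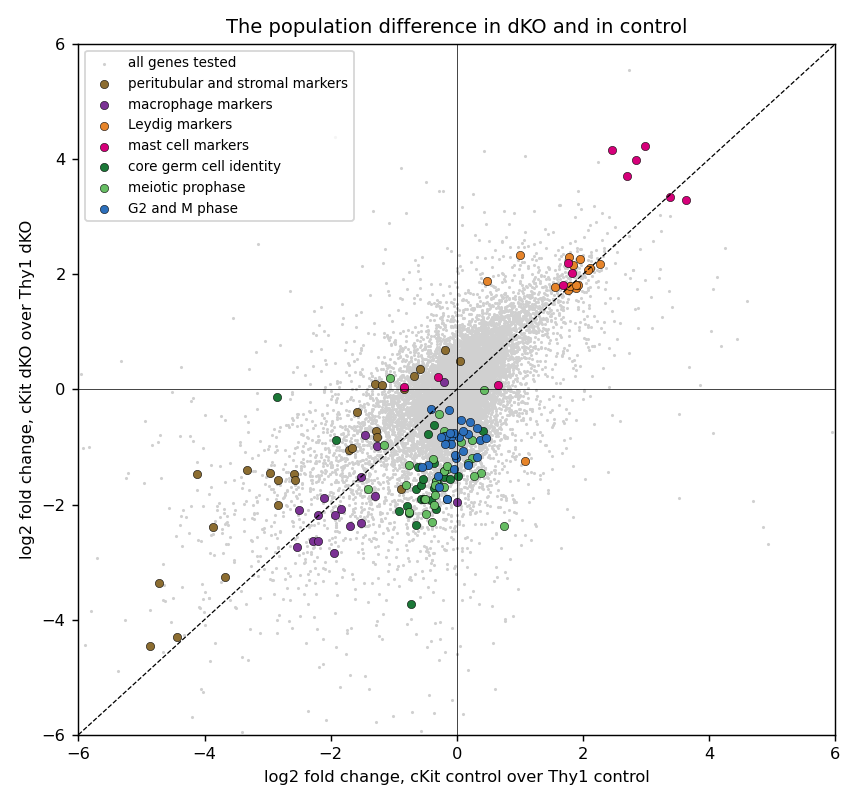
Log2 fold change of cKit over Thy1 in dKO (y axis) against control (x axis) for the genes tested, with 7 gene lists coloured and a dashed line where both are equal; 83 genes lie outside the axes. On this TMM scale Leydig and mast cell markers are higher in both. Core germ cell, meiotic and G2 and M phase genes lie below the line on it, and many stromal markers lie above the line. With germ cell scaling the dKO medians of core germ cell, meiotic, G2 and M phase and stromal genes lay at 0.02, 0.17, 0.78 and 0.24. That scaling is built on core germ cell and piRNA genes.

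The difference between the 2 population differences (dKO minus control) passed for 883 genes (5.92%), 278 positive (1.86%) and 605 negative (4.06%); 20.7% had an unadjusted p under 0.05. It rests on the scaling: with germ cell scaling 8536 genes were positive and 36 negative, and with library totals 172 were positive and 966 negative. Without 1 library the 883 became 219 (Thy1 dKO replicate 1), 378 (Thy1 dKO replicate 2), 297 (Thy1 control replicate 1), 526 (Thy1 control replicate 2) or 367 (cKit control replicate 1). Of the 605 negative genes, 581 were called lower in dKO. Core germ cell genes were negative for 14 of 26 members, piRNA genes for 11 of 23, meiotic genes for 12 of 30, genes of differentiating spermatogonia for 8 of 16, G2 and M phase genes for 18 of 28 and S phase genes for 8 of 31, with none positive in these 6 lists. None of the tested Leydig, mast cell, macrophage or endothelial markers passed this edgeR test in either direction, and at an unadjusted p under 0.05 there were 2, 2, 1 and 2 of them.

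Tdrkh stood among the genes with the smallest adjusted p of this difference. Its CPM was 42.7 and 37.8 in Thy1 dKO and 9.45 and 8.94 in cKit dKO, against 47.9 and 41.6 in Thy1 control and 62.6 and 47.2 in cKit control. Only the cKit dKO libraries were low, and the difference was -2.43 ± 0.27 (adjusted p = 8.3e-04). Cenpf gave the same picture, with CPM of 341 and 362 in Thy1 control and 495 and 387 in cKit control and a difference of -1.496 ± 0.19 (adjusted p = 8.3e-04). Epcam had CPM of 52.7 and 43.4 in Thy1 control and 77.2 and 59.0 in cKit control and a difference of -1.97 ± 0.29.

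Stromal and matrix genes gave calls of the opposite sign. Of the 25 stromal markers, 12 were positive and 1 negative, and of the 38 collagen and matrix genes 12 were positive and 1 negative, with 5 listed genes shared between the lists. Dcn had log2 fold changes of -1.46 in dKO and -2.58 in controls, where its CPM was 1561 and 1299.7 in Thy1 control and 241 and 238 in cKit control. The difference was 1.12 ± 0.17 (adjusted p = 0.0018). Bgn, a matrix proteoglycan, had CPM of 1316 and 1248 in Thy1 dKO and 1470.5 and 1281 in cKit dKO, and of 1469 and 1283 in Thy1 control and 688 and 765 in cKit control. It thus dropped between the populations in controls (-0.92 ± 0.11), while the dKO change of 0.10 ± 0.11 did not pass (difference 1.02 ± 0.15, adjusted p = 0.0017).

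Ddit4, a stress-induced inhibitor of mTOR signalling, was among the 12 genes called higher in dKO and lower in controls. Its CPM was 14.3 and 10.3 in Thy1 dKO and 34.7 and 42.8 in cKit dKO, and 19.3 and 23.0 in Thy1 control and 9.35 and 10.8 in cKit control. The groups were apart in both genotypes but in opposite order, at 1.65 ± 0.23 in dKO and -1.07 ± 0.24 in controls (difference 2.72 ± 0.33, adjusted p = 8.3e-04). Des, the muscle filament desmin, gave a positive difference of 2.65 ± 0.46, with CPM of 30.7 and 32.4 in Thy1 dKO and 14.7 and 8.16 in cKit dKO and 41.3 and 30.6 in Thy1 control and 1.39 and 2.93 in cKit control. Dpt, a dermal matrix protein, gave 1.80 ± 0.24. Zkscan2, a zinc finger factor, gave -2.63 ± 0.45, with CPM of 11.5 and 9.39 in Thy1 dKO and 1.44 and 2.67 in cKit dKO and 15.6 and 13.9 in Thy1 control and 17.6 and 18.6 in cKit control. Flad1, an enzyme of FAD synthesis, had the largest positive value among genes with a mean log2 CPM of at least 3 over all libraries, 4.42 ± 1.21, but it rests on 1 library, with CPM of 9.57 and 4.49 in Thy1 dKO and 117 and 4.71 in cKit dKO. Without cKit dKO replicate 1 the difference was 0.82 (adjusted p = 0.51) and its dKO fold change was -0.51.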

How the data were processed

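RNA of Thy1+ and cKit+ spermatogonia was measured in 8 libraries. Libraries were made with the RNeasy micro, NuGEN Ovation v2 and Nextera XT kits and read on an Illumina HiSeq, per the labels' protocols. STAR 2.4.2a and mm10 are named in the submitters' processing notes. The counting tool and strand setting are not given in the sources used here, so overlapping genes and antisense partners may share reads. The authors deposited whole-number counts and RPKM values (scaled to length and library size, per the file headers) for 26099 transcript entries. Counts were summed over the 23343 gene symbols, so 2060 symbols with several entries may hold reads more than once.

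All 8 libraries were fitted in edgeR 4.0.16 (R 4.3.3; filterByExpr by group, TMM, 1 mean per group, 4 residual degrees of freedom, quasi-likelihood F tests, two-sided, Benjamini-Hochberg at 0.05), because 2 libraries a group say little about spread. The standard error is the absolute log2 fold change divided by the square root of F. limma 3.58.1 and DESeq2 1.42.0 were alternatives. Folds against a group at 0 use a floor of 3 counts over the group; amplified reads without molecular identifiers make floors cover counting error only. Named genes are the sort and lineage markers, the 12 largest changes in each direction as described, the 8 largest genotype differences in each direction, up to 4 members a list with the lowest p, and members whose genotype difference passed; a subset of these is named, and some genes are not reported here. Genes named outside this rule, with their values seen, are Bcor, Cd24a, Cdh5, Cdkn2a, Fcer1a, Insl3, Kitl, Lama1, Pcgf2, Ptch1, Rrm1, Shisa6, Sox9 and Tet2. Members and lists were chosen with earlier results of these data known.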

Additional observations from a re-analysis of the deposited data

Results flagged for a closer look

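For 50 of the 126 genes named, the difference between cKit and Thy1 was itself different between dKO and control. The call is by edgeR's test of that difference with Benjamini-Hochberg adjustment over all genes. Of the 50, 38 gave a negative value (dKO minus control, log2) and 12 a positive one. Some genes were named because this difference passed, so 50 of 126 reflects the choice of genes. Over all genes tested it passed for 5.92%. With germ cell scaling, 15 of the 50 kept sign and call, 25 kept the sign but lost the call, and 10 changed sign without passing. No explanation was tested, and 18 of the 50 lost the call when 1 of the 8 libraries was left out.

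Among the genes chosen for naming, germ cell genes were the most common kind. Core germ cell and piRNA genes gave -1.33 (Dazl), -1.499 (Ddx4), -1.69 (Stk31), -1.39 (Slc25a31), -1.74 (Taf7l), -1.39 (Mael), -1.69 (Morc1), -1.43 (Piwil2) and -2.43 (Tdrkh). The transcription factors of spermatogonia gave -1.37 (Sall4), -1.52 (Sohlh1) and -1.86 (Sohlh2), and Stra8 gave -1.40. Meiotic genes gave -3.11 (Mei1), -1.75 (Smc1b), -1.31 (Stag3), -1.23 (Sycp1) and -1.66 (Tex15). The surface proteins Epcam and Itga6 gave -1.97 and -1.15. In controls the log2 fold changes of these genes between the populations ran from -1.10 (Morc1) to 0.96 (Stra8).

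Genes of dividing cells and chromatin were negative as well. Mitotic genes gave -1.41 (Bub1), -1.75 (Ccnb1), -1.496 (Cenpf), -0.86 (Kif11), -0.77 (Mki67) and -0.96 (Top2a), and replication genes -1.15 (Mcm6) and -1.04 (Pole). Polycomb and DNA methylation genes gave -1.13 (Cbx2), -1.52 (Pcgf5), -1.35 (Scml2), -0.97 (Dnmt1), -1.46 (Dnmt3b) and -1.58 (Hells). The other negative values were -1.45 (Cbr2), -2.74 (Cd3e), -0.66 (Hsp90aa1) and -2.63 (Zkscan2).

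Positive values came in part from stromal and matrix genes, with 1.02 (Bgn), 1.12 (Dcn), 2.65 (Des), 1.80 (Dpt), 0.87 (Gli1) and 1.25 (Postn). The others were 2.72 (Ddit4), 0.74 (Dusp1), 0.89 (Etv5), 4.42 (Flad1), 0.69 (the WNT antagonist Sfrp1) and 0.81 (Slc25a35).

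The 18 genes that lost the call are given with the highest adjusted p over the left-out libraries: Cbr2 0.15 without Thy1 dKO replicate 1, Cbx2 0.091 without Thy1 control replicate 1, Cd3e 0.20 without cKit control replicate 1, Dusp1 0.19 without Thy1 dKO replicate 1, Etv5 0.082 without Thy1 dKO replicate 1, Flad1 0.51 without cKit dKO replicate 1, Gli1 0.13 without Thy1 dKO replicate 1, Hsp90aa1 0.14 without Thy1 dKO replicate 1 and Itga6 0.088 without Thy1 control replicate 1. For the other 9 it was 0.13 without Thy1 control replicate 1 (Kif11), 0.053 without Thy1 dKO replicate 1 (Mki67), 0.18 without Thy1 control replicate 1 (Postn), 0.18 without Thy1 control replicate 1 (Sfrp1), 0.059 without cKit control replicate 1 (Slc25a31), 0.10 without Thy1 dKO replicate 2 (Slc25a35), 0.12 without Thy1 dKO replicate 1 (Sohlh1), 0.067 without Thy1 dKO replicate 1 (Stra8) and 0.055 without Thy1 dKO replicate 1 (Sycp1).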

How the results depend on the processing

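Of the 126 dKO fold changes of named genes, 118 kept their direction and side of the threshold over all 8 left-out libraries and 112 over all alternatives but germ cell scaling; for the 50 genotype differences these were 32 and 31. Scaling matters most. Once germ cell scaling was included, 58 of the 126 dKO fold changes and 8 of the 50 genotype differences held over all alternatives. With germ cell scaling, 11648 genes were higher and 180 lower, and 8572 genotype differences passed. Left-out libraries moved the higher genes between 1293 and 2587, the lower genes between 1808 and 3010, the control calls between 1717 and 3575 and the genotype differences between 219 and 1268. The genotype differences were 1490 with no filter on low counts and 433 with only the transcript entry of most counts per symbol. Fits without a library leave 1 sample in a group, assumed to vary like the others. The cause of these changes was not tested.

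Replicate numbers gave no visible pairing of the libraries: same-numbered libraries of 2 groups deviated together at -0.06 to 0.06 (correlation across genes). These values cannot exclude pairing, because a weak shared effect may be hidden by other spread between the libraries. With the replicate number as a block, 2168 genes were higher and 2959 lower, and the genotype difference was positive for 311 and negative for 613.

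Fold changes that turned from lower to higher with germ cell scaling (Wt1, Cdh5 and Stra8 among them did not pass before) were Cbx2 0.35, Cdh5 1.53, Cdkn1c 0.86, Cenpf 0.48, Dcn 0.23, Des 0.24, Dnmt1 0.97, Dnmt3b 0.73, Eng 0.89, Epcam 0.16, Ezh2 0.78, Hsp90aa1 0.98, Itga6 0.14, Kif11 0.34, Mcm6 0.39, Mki67 1.08, Mtf2 0.45, Pcgf5 0.24, Piwil2 0.10, Pole 0.41, Prim1 0.62, Rrm1 0.85, Scml2 0.034, Slc2a3 0.61, Stra8 1.22, Sycp1 0.26, Tek 0.31, Top2a 0.87 and Wt1 1.498. Among these, Cdh5, Cdkn1c, Dnmt1, Dnmt3b, Eng, Ezh2, Hsp90aa1, Mki67, Prim1, Rrm1, Slc2a3, Stra8, Top2a and Wt1 passed as higher with germ cell scaling. The rest of them did not pass with it. Genotype differences turned positive for Cbx2 0.066, Dnmt1 0.28, Hsp90aa1 0.61, Itga6 0.059, Kif11 0.40, Mcm6 0.12, Mki67 0.47, Pole 0.21, Sycp1 0.0022 and Top2a 0.29. Bgn, Etv5, Rnf2, Ring1 and Sox9 did not pass with TMM but passed as higher with germ cell scaling. They stood there at 1.79, 1.73, 1.78, 2.80 and 2.09, where the median of all genes was 1.59. With library totals, Bgn stood at -0.034, Etv5 at -0.054 and Rnf2 at -0.017, none past the threshold. With limma on log2(RPKM + 1) and log2(RPKM + 0.1), Etv5 stood at -0.0095 and -0.012. Flad1 ran from -0.51 without cKit dKO replicate 1 to 4.10 without replicate 2.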
